A study of Caenorhabditis elegans with 11 samples.

Results

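UDP-glucuronosyltransferase (UGT) genes of the nematode Caenorhabditis elegans were followed in whole animals given 1 of 3 betalain pigments. They were taken as every transcript cluster whose gene symbol in the authors' deposited annotation was ugt- and a number, with 1 cluster per gene, and they came to 65 genes of 27055 named and 29317 measured clusters. All 65 symbols matched a gene of the RefSeq WBcel235 gene table, which lists 67 ugt genes. The genes ugt-66 and ugt-67 were not analysed here. Of the 65 genes 41 lie on chromosome V, 12 on IV, 5 on I, 4 on X, 2 on III and 1 on II.

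UGT enzymes sit in the membrane of the endoplasmic reticulum and join a sugar, taken from a UDP-sugar, to small fat-soluble molecules, so that these dissolve in water and can be pumped out of the cell. They are counted as second-phase detoxification enzymes, act on foreign chemicals as well as on the animal's own metabolites, and in nematodes often add glucose. The intestine is a main site of detoxification in the worm, and several UGT genes are known targets of the stress regulator SKN-1. The substrates of most single worm UGTs are not settled, so the genes are ordered below by how they behaved and not by substrate.

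Expression was measured on Affymetrix arrays, 1 per sample, in animals of the wild-type strain N2, which the labels describe as young adults of 3 days after hatching. The control group (2 arrays) was not treated. The other groups (3 arrays each) had received 25 uM of a betalain, a pigment of betalamic acid and an amine, for 48 h at 20 °C in S medium from the first larval stage, at 16 to 18 h of age. The amine is proline in indicaxanthin, phenylalanine in phenylalanine-betaxanthin, and indoline carboxylic acid in the third compound, called indoline-betacyanin here. RNA came from whole animals, so fewer cells of a type and less RNA per cell cannot be told apart.

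Levels are log2 values on the scale of RMA, a method that corrects, normalises and summarises probe signals, and a difference of 1 is a 2-fold change. The labels call each array an independent trial without saying what arrays of the same trial had in common. The p-values therefore measure the spread between these samples, and the number of arrays limits the precision. A gene was called changed when the adjusted p of limma, a linear model with a moderated estimate of the spread, was under 0.05 over the 20291 named clusters whose mean level exceeded 1.523. Standard errors (SE) and adjusted p below are from that fit.

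The arrays differed by more than their groups. The mean level of the 6 yolk protein genes vit-1 to vit-6, which are switched on in the adult hermaphrodite intestine, was 1.71 and 1.56 on the control arrays and 10.01 to 10.07 with phenylalanine-betaxanthin. Indoline-betacyanin arrays had 1.67 to 3.17. Indicaxanthin arrays 1 and 2 had 1.71 and 1.75, but array 3 had 10.09, so the yolk genes of a young adult were high on 4 of the 11 arrays. The 12 moulting genes ran from 4.26 to 4.96 on those 4 arrays and from 6.11 to 6.67 on the other 7. In addition, the authors' deposited tables for indoline-betacyanin and phenylalanine-betaxanthin imply 3 controls, of which the array matrix used here holds 2. With these 2 taken as members of the 3, the authors' deposited table gives the level of a further control for every gene, once per table. It is called the inferred control below, and its 2 estimates differed by a median of 0.233 and by at most 1.05 over the UGT genes. It was computed and not measured, and any mismatch between the authors' ratios and the levels used here enters it 3 times. By the authors' deposited tables its yolk genes averaged 10.09 or 10.22.

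Of the 65 UGT genes 56 passed the filter on low levels and 9 did not: ugt-14, ugt-15, ugt-17, ugt-27, ugt-35, ugt-40, ugt-42, ugt-43 and ugt-56. These 9 lay between 1.09 and 1.92 on every array. Nearest the threshold were ugt-15, with a mean of 1.493, and ugt-8, which passed at 1.532. The mean of ugt-38 passed only through the controls, since its other 9 arrays averaged 1.12, and ugt-13 and ugt-11 passed only through the arrays of phenylalanine-betaxanthin. A gene let in by the group where it is high had to differ there. The counts called with all 11 arrays are therefore also given over the 53 genes without these 3, where they differ. Counts of genes whose groups do not overlap include these 3. Of the 56 genes tested, 34 (60.7%) were called in at least 1 of the 6 comparisons between groups, where 63.5% of all clusters were, and 22 in none. Against control, 25 (44.6%; all clusters 52.2%) were called with at least 1 compound and 7 (12.5%; all clusters 10.5%) with at least 2. Called with all 3 were ugt-38 and ugt-28, or 3.57%, where 5.36% of all clusters were.

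**Figure D1:**
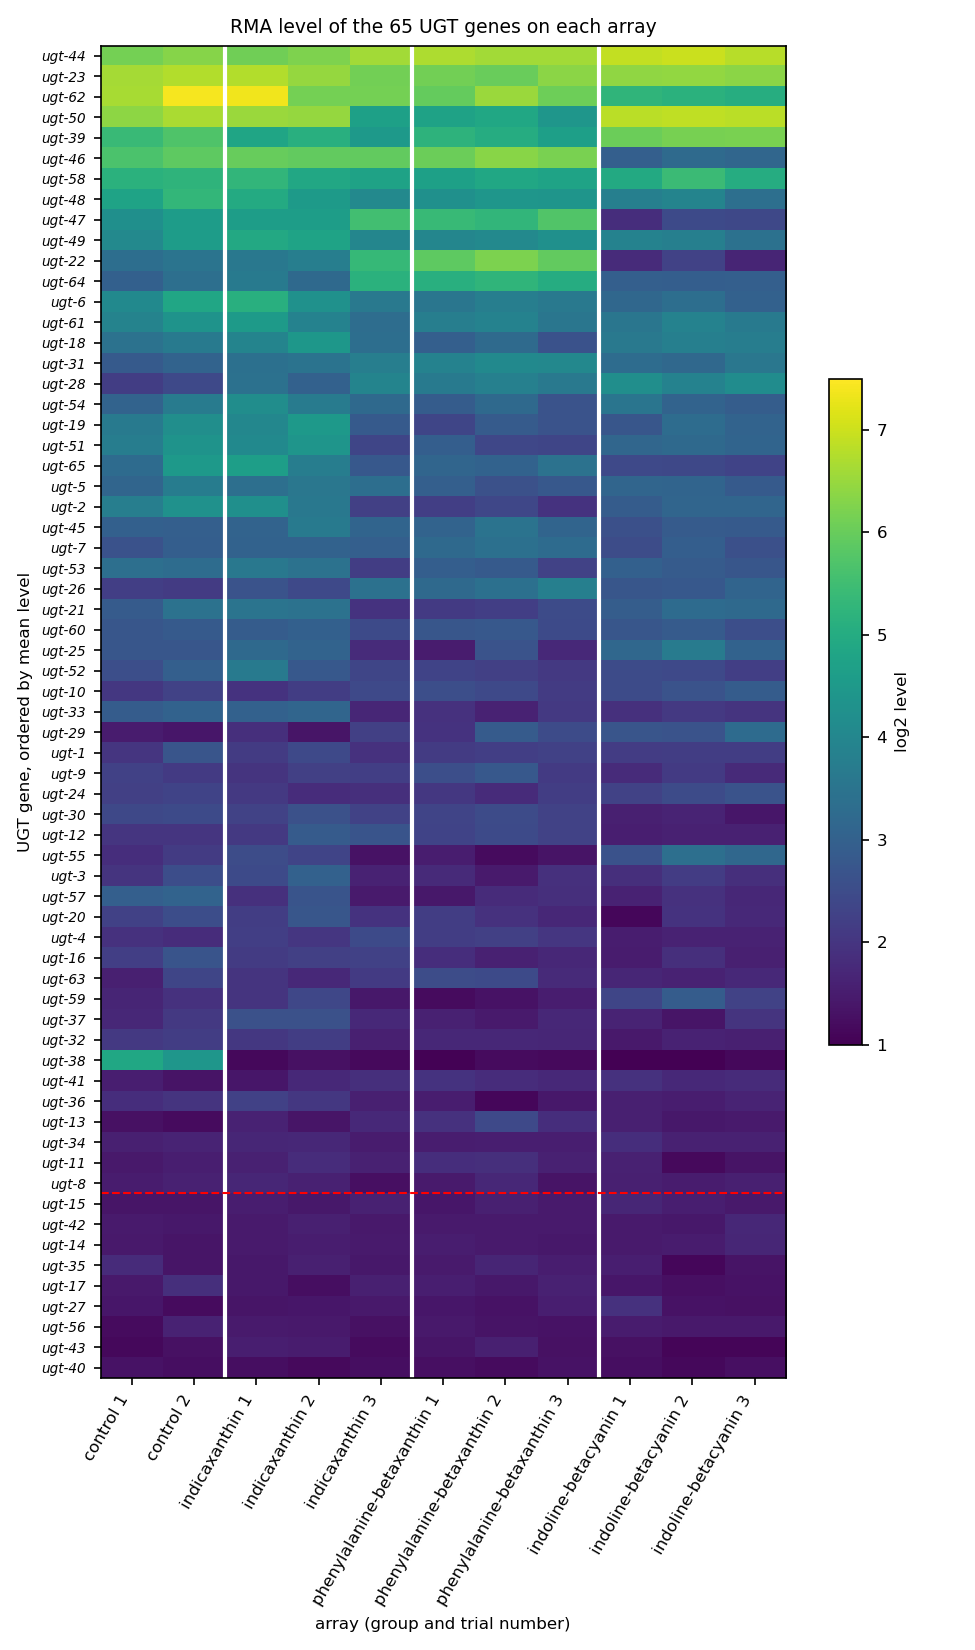
Log2 RMA level (colour) of the 65 UGT genes (rows, in the order of their means, for layout only) on the 11 arrays (columns, grouped by treatment with white lines between groups), with the filter on low levels as a dashed red line. The columns of indicaxanthin array 3 and of the phenylalanine-betaxanthin arrays share their pattern for ugt-50, ugt-22 and ugt-64, the indoline-betacyanin columns are dark for ugt-46, ugt-47 and ugt-22, and ugt-38 is bright on the controls alone.

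The gene ugt-38 stood apart by its controls. Its level was 4.88 and 4.42 on the control arrays, 1.15, 1.28 and 1.17 with indicaxanthin, 1.01, 1.00 and 1.14 with indoline-betacyanin, and 1.03, 1.18 and 1.16 with phenylalanine-betaxanthin. Both controls were far above the other 9 arrays, all of which lay under the filter level of 1.523. The treated levels are therefore read only as low. The control mean of 4.65 was at least 3.13 above them, taken against the filter level, while the measured differences were -3.60, -3.45 and -3.53 for indoline-betacyanin, indicaxanthin and phenylalanine-betaxanthin (SE 0.15 each). As the controls alone carried the gene past the filter, its calls were read from the fit with no filter on low values, where the limma adjusted p was 3.46e-06, 6.61e-06 and 3.95e-06 in the same order. These 3 comparisons share the same 2 controls. Differences between the compounds are not given, because all 9 levels lay so low.

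The inferred control did not share the high level of ugt-38. By the authors' deposited tables it stood at 0.54 or 0.65, below all 9 treated arrays. The authors' deposited table of indoline-betacyanin gives ugt-38 a ratio to control of 0.213 with an unadjusted p of 0.153, and the authors' deposited table of phenylalanine-betaxanthin gives 0.218 with 0.137. The authors' deposited table of indicaxanthin, whose sums of squares imply 2 arrays per group, gives 0.132 with 0.01. With the inferred control counted, 2 of 3 controls were thus high and 1 was low. Both estimates of the inferred control use the same 2 control arrays. The authors' indicaxanthin ratio of ugt-38 is -2.92 as a log2 value, where indicaxanthin arrays 1 and 2 gave -3.44 here. A gap of that kind in the other ratios would enter the inferred control 3 times, so its level is read only as low.

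The tested genes whose levels followed ugt-38 most closely over the 11 arrays were F23C11.2 (Pearson r 0.998), T22B7.13 (0.997), C18H9.10 (0.997), B0554.2 (0.996) and F12D9.4 (0.996). B0554.2 is protein-coding and the other 4 are non-coding RNAs in the RefSeq table. F23C11.2 was at 6.41 and 6.03 on the controls, with the other arrays at 1.21 to 1.77, and B0554.2 at 3.85 and 3.52 against 1.33 to 1.61. The 5 were picked for following ugt-38, so both controls were above every other array for all 5, as they were for 10.1% of all clusters. For all but T22B7.13 the other 9 arrays averaged under the filter level of 1.523, so the controls alone carried these genes past it. The inferred control was low for all 5 by the authors' deposited tables, at 1.03 to 1.99. These correlations describe 2 high arrays against 9 low ones.

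With indoline-betacyanin more UGT genes fell than rose. Against control 9 of the 56 fell and 3 rose, a share of 21.4%, where 17.3% of all clusters were called. Over the 53 genes without those let in by 1 group, 8 fell and 3 rose (20.8%). The median change was -0.28 over the UGT genes and 0.02 over all clusters, and 39 of the 56 were below 0. By direction, 16.1% of the UGT genes fell, against 9.37% of all clusters, and 5.36% rose, against 7.97%. The arrays of the treated and control groups did not overlap for 29 UGT genes that were lower (51.8%; all clusters 29.2%) and 13 that were higher (23.2%; all clusters 31.1%).

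**Figure D2:**
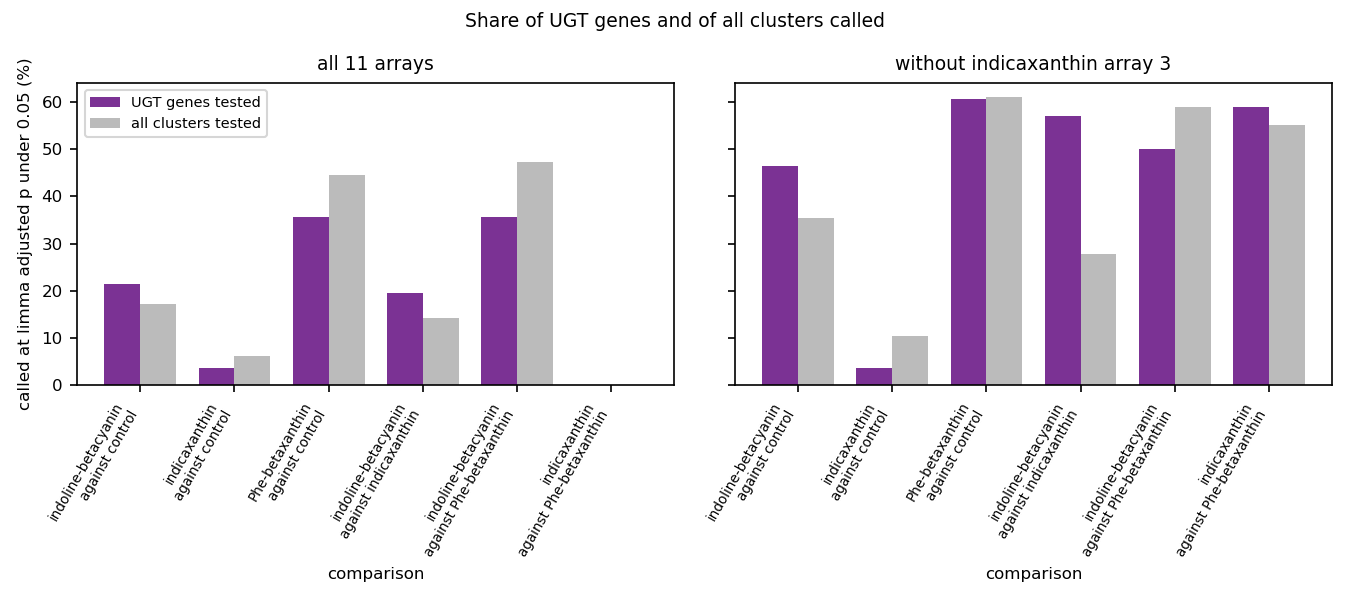
Share of the 56 UGT genes tested (purple bars) and of all 20291 clusters tested (grey bars) with a limma adjusted p under 0.05, in percent, for each of the 6 comparisons, with all 11 arrays (left) and without indicaxanthin array 3 (right). The UGT bar is higher than the grey one for indoline-betacyanin against control and against indicaxanthin in both panels, and the comparison of indicaxanthin with phenylalanine-betaxanthin goes from 0 to 33 of the 56 UGT genes.

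The genes ugt-46 and ugt-47 carried the largest decreases after ugt-38. The level of ugt-46 was 5.65 and 5.89 on the controls, 2.97, 3.25 and 3.15 with indoline-betacyanin, 5.99, 5.94 and 5.93 with indicaxanthin, then 6.04, 6.35 and 6.19 with phenylalanine-betaxanthin. The 3 indoline-betacyanin arrays lay far below the other 8, whose levels stayed close together. It fell by 2.65 against control (SE 0.15, limma adjusted p = 1.12e-05), and the inferred control, at 5.66 or 6.5 by the authors' deposited tables, was as high as the others.

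For ugt-47 the controls read 4.24 and 4.60, the indoline-betacyanin arrays 1.84, 2.47 and 2.42, the indicaxanthin arrays 4.61, 4.61 and 5.52, and the phenylalanine-betaxanthin arrays 5.37, 5.27 and 5.74. The indoline-betacyanin arrays were again below all others, and the phenylalanine-betaxanthin arrays were above the controls. The decrease was 2.18 (log2 change -2.18, SE 0.32, limma adjusted p = 0.00158). The inferred control was at 4.82 or 5.39 by the authors' deposited tables.

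The gene ugt-62 read 6.66 and 7.42 on the controls, 5.25, 5.16 and 5.05 with indoline-betacyanin, 7.36, 6.14 and 6.13 with indicaxanthin, then 5.97, 6.51 and 6.06 with phenylalanine-betaxanthin. The indoline-betacyanin arrays were the lowest 3, and the other groups overlapped in part. It fell by 1.88 (SE 0.39, limma adjusted p = 0.00917), but the inferred control was at 5.71 or 5.31 by the authors' deposited tables, nearer to the treated arrays than to the 2 other controls.

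The other genes that fell with indoline-betacyanin were ugt-48 (log2 change -1.33, SE 0.28), ugt-6 (-1.30, SE 0.38), ugt-57 (-1.26, SE 0.32), ugt-30 (-0.89, SE 0.15) and ugt-16 (-0.81, SE 0.18), with limma adjusted p from 0.00346 to 0.0486. The call of ugt-6 was lost in the fit with no filter (limma adjusted p = 0.0563), and without control array 2 its change was -0.92. For ugt-30 the controls were at 2.41 and 2.45, the inferred control at 2.18 or 2.26 by the authors' deposited tables, and the treated arrays at 1.57, 1.65 and 1.40. All of these treated arrays were below every control, but the levels were close to the filter. The genes ugt-48 and ugt-57 stood on the inferred control at 3.89 or 3.85 and at 1.34 or 1.72 by the authors' deposited tables, near their levels on the treated arrays (3.37 to 3.93 and 1.62 to 1.93). Over the 9 genes that fell, the inferred control had moved more than 1/2 of the way to the treated mean by both of the authors' deposited tables for 5 and less than 1/2 by both for 3.

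The genes that rose with indoline-betacyanin were ugt-28, ugt-29 and ugt-44. The level of ugt-28 was 2.18 and 2.44 on the controls, 4.22, 3.87 and 4.17 with indoline-betacyanin, 3.42, 3.03 and 3.94 with indicaxanthin, then 3.65, 3.82 and 3.63 with phenylalanine-betaxanthin. Both controls were below every treated array, and the indicaxanthin arrays overlapped those of the other compounds. It rose by 1.78 with indoline-betacyanin (SE 0.25, limma adjusted p = 0.0012), by 1.15 with indicaxanthin (SE 0.25, adjusted p = 0.0246) and by 1.39 with phenylalanine-betaxanthin (SE 0.25, adjusted p = 0.0066). By the authors' deposited tables the inferred control was at 3.66 or 3.09, among the treated arrays.

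The gene ugt-29 rose by 1.44 (SE 0.33, limma adjusted p = 0.0153), from 1.5 and 1.39 to 2.71, 2.67 and 3.28, and the inferred control was at 1.70 or 1.84 by the authors' deposited tables. All 3 treated arrays were above these. The gene ugt-44 rose by 0.66 (SE 0.16, limma adjusted p = 0.0214), from 6.15 and 6.32 to 6.91, 6.99 and 6.80. The inferred control, at 6.59 or 6.72 by the authors' deposited tables, lay between the groups.

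Where the indoline-betacyanin arrays were compared with all 8 others without a test, they were the lowest 3 for 13 of the 56 UGT genes, or 23.2%, where 7.1% of all clusters were so placed. These were ugt-4, ugt-6, ugt-12, ugt-22, ugt-30, ugt-45, ugt-46, ugt-47, ugt-48, ugt-49, ugt-62, ugt-64 and ugt-65. They were the highest 3 for ugt-39, ugt-44, ugt-50 and ugt-55, or 7.14%, against 13.7% of all clusters. No UGT gene had its 3 indicaxanthin arrays above or below all others. The phenylalanine-betaxanthin arrays were the highest 3 for ugt-7, ugt-13, ugt-22, ugt-31 and ugt-46 (8.93%; all clusters 3.59%) and the lowest 3 for ugt-18 and ugt-36 (3.57%; all clusters 5.49%). Both controls were above all other arrays for ugt-38 and ugt-57 (3.57%; all clusters 10.1%) and below them for ugt-13, ugt-26, ugt-28 and ugt-31 (7.14%; all clusters 6.59%). The genes ugt-13 and ugt-38 passed the filter only through the group in which each is counted here as highest. Those places are not read as results.

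Markers of tissues moved on the same arrays. Indoline-betacyanin arrays had a mean level of 5.75 to 5.93 over 14 measured intestine markers, where the controls had 6.88 and 7.04, and 7 of the 14 markers fell and 0 rose. By the authors' deposited tables the inferred control was at 6.45 or 6.39. Not all intestine markers were lower. On the indoline-betacyanin arrays elt-2 was at 7.95 to 8.14, above its controls at 7.16 and 7.67. The level of elt-7 was 3.73 to 4.19 there, above its controls at 3.61 and 3.52. The mean of the 6 epidermis markers ran from 5.51 to 6.03, against 7.71 and 7.58, and 3 of the 6 fell and 0 rose. Of these markers dpy-7 was at 6.53 to 6.74, above its controls at 6.29 and 6.27. The part of the tissue markers in the UGT levels was not tested. Leaving out control array 2 left 5 UGT genes called (1 higher, 4 lower), where 12.6% of all clusters were, and leaving out indicaxanthin array 3, which enters the estimate of the spread, gave 26 (8 higher, 18 lower) where 35.4% of all clusters were called. The genes ugt-28, ugt-30, ugt-46 and ugt-47 stayed called without any 1 array. So did ugt-38, but these fits kept the filter that it passed only through its controls. Centring each array on its median moved the median of all clusters by 0.16 and the split to 6 higher and 8 lower (all clusters called, 19.5%), and a further quantile normalization gave 6 and 9 (all clusters 16.9%).

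With phenylalanine-betaxanthin 10 UGT genes rose and 10 fell against control, a share of 35.7%, where 44.6% of all clusters were called. Over the 53 genes without those let in by 1 group, 9 rose and 9 fell (34%). This even split moved with the setting. It was 12 higher and 22 lower without indicaxanthin array 3, 12 and 24 with array weights and 13 and 23 in a fit of only the 2 groups, but 12 and 5 with each array centred on its median. The median change was -0.41 over the UGT genes and -0.05 over all clusters. The genes that rose were ugt-22, ugt-64, ugt-28, ugt-26, ugt-31, ugt-47, ugt-29, ugt-13, ugt-7 and ugt-46, with changes from 0.42 (SE 0.15, limma adjusted p = 0.0444) in ugt-46 to 2.59 in ugt-22. A further quantile normalization took the change of ugt-46 to 0.17 (adjusted p = 0.404). The genes that fell were ugt-38, ugt-50, ugt-2, ugt-51, ugt-57, ugt-19, ugt-33, ugt-16, ugt-5 and ugt-39, and the smallest change was -0.60 (SE 0.21, limma adjusted p = 0.0457) in ugt-39. The arrays of both groups did not overlap for 16 UGT genes that were higher (28.6%; all clusters 34.9%) and 29 that were lower (51.8%; all clusters 40.5%), and all 20 called genes were among them.

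The gene ugt-22, which alters the efficacy of the anthelmintic albendazole in the worm, had the widest range of all UGT genes. Its level was 3.35 and 3.50 on the controls, 5.88, 6.23 and 5.93 with phenylalanine-betaxanthin, 3.60, 3.78 and 5.36 with indicaxanthin, and 1.79, 2.27 and 1.67 with indoline-betacyanin. The phenylalanine-betaxanthin arrays were the highest 3, indicaxanthin array 3 came next to them, and the indoline-betacyanin arrays were the lowest 3. It rose by 2.59 with phenylalanine-betaxanthin (SE 0.46, limma adjusted p = 0.00641). The inferred control was at 4.93 or 5.97 by the authors' deposited tables. With indoline-betacyanin the change from control was -1.51 (95% interval -2.56 to -0.47, adjusted p = 0.0528), which did not pass.

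The gene ugt-64 read 3.00 and 3.38 on the controls, 5.11, 5.25 and 5.03 with phenylalanine-betaxanthin, 3.69, 3.22 and 5.16 with indicaxanthin, and 2.98, 2.94 and 2.97 with indoline-betacyanin. Its high arrays were the 3 of phenylalanine-betaxanthin and indicaxanthin array 3, the same 4 that were high for yolk genes. It rose by 1.94 with phenylalanine-betaxanthin (SE 0.46, limma adjusted p = 0.0176), and the inferred control was at 4.37 or 5.22 by the authors' deposited tables.

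The gene ugt-50 ran the other way, at 6.40 and 6.68 on the controls, 4.75, 4.87 and 4.41 with phenylalanine-betaxanthin, 6.52, 6.46 and 4.69 with indicaxanthin, and 6.83, 6.89 and 6.82 with indoline-betacyanin. The low arrays were again those 4. It fell by 1.86 with phenylalanine-betaxanthin (SE 0.48, limma adjusted p = 0.02), and the inferred control was at 4.93 or 4.53 by the authors' deposited tables.

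The further decreases with phenylalanine-betaxanthin were ugt-2 (log2 change -1.85, SE 0.48), ugt-51 (-1.5, SE 0.52), ugt-57 (-1.32, SE 0.32), ugt-19 (-1.30, SE 0.43), ugt-33 (-1.10, SE 0.38), ugt-16 (-0.73, SE 0.18) and ugt-5 (-0.64, SE 0.21), with limma adjusted p from 0.018 to 0.0436. Without control array 2 the change of ugt-5 was -0.33. In the fit with no filter the calls of ugt-51 and ugt-33 were lost (limma adjusted p = 0.055 and 0.0522). With each array centred on its median, the calls of ugt-19, ugt-51, ugt-33 and ugt-5 were lost (adjusted p from 0.0553 to 0.0936). For ugt-2 the controls were at 3.77 and 4.29 and the treated arrays at 2.21, 2.38 and 1.96, and indicaxanthin array 3 was at 2.22 while arrays 1 and 2 were at 4.23 and 3.60. The inferred control of ugt-2 was at 1.67 or 1.88 by the authors' deposited tables. Over the 10 genes that fell, the inferred control had moved more than 1/2 of the way to the treated mean by both of the authors' deposited tables for 9. Over the 10 that rose it had for 4, and less than 1/2 by both for 3.

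Of the further increases, ugt-26 (1.31, SE 0.29), ugt-31 (1.05, SE 0.17), ugt-47 (1.04, SE 0.32), ugt-29 (0.99, SE 0.33), ugt-13 (0.84, SE 0.20) and ugt-7 (0.49, SE 0.16) had limma adjusted p from 0.00421 to 0.0386. Since ugt-13 was let in by the phenylalanine-betaxanthin arrays, its call was read from the fit with no filter, where the adjusted p was 0.0181. The level of ugt-31 was 2.85 and 3.06 on the controls and 3.89, 4.09 and 4.03 on the treated arrays, with the inferred control at 2.94 or 2.40 by the authors' deposited tables. Here all controls, the inferred one included, were below all 3 treated arrays. For ugt-26 the controls were at 2.21 and 2.13, the inferred control at 2.74 or 2.12 by the authors' deposited tables, and the treated arrays at 3.23, 3.40 and 3.80, again without overlap.

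**Figure D3:**
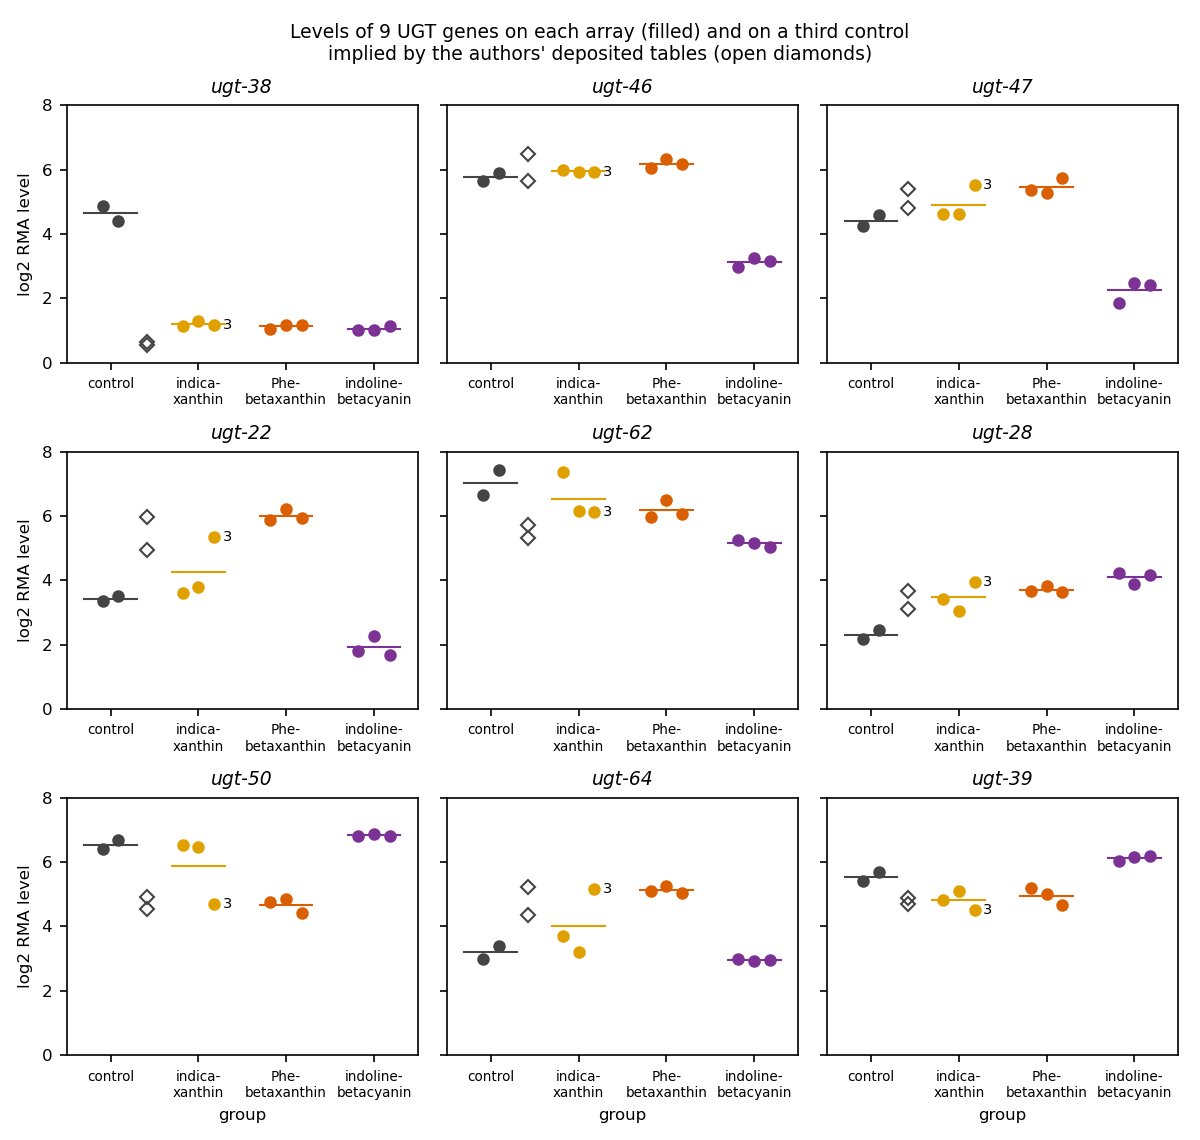
Log2 RMA level of 9 UGT genes on each array (filled points; horizontal bars are group means; "3" marks indicaxanthin array 3; "Phe" stands for phenylalanine) and on the inferred control of the authors' deposited tables (open diamonds, 1 per table). The points of ugt-46 and ugt-47 are low with indoline-betacyanin alone, those of ugt-22, ugt-64 and ugt-50 place indicaxanthin array 3 and the diamonds beside phenylalanine-betaxanthin, and the diamonds of ugt-38 lie below all points.

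The 4 arrays of high yolk level comprise every phenylalanine-betaxanthin array, and both controls have a low one, so treatment and yolk level cannot be told apart in this comparison. All 6 yolk genes and all 13 oocyte and eggshell genes rose in it (medians 8.40 and 6.25). The calls also rested on each control. Without control array 1 there were 3 UGT genes called (all clusters 5.7%) and without control array 2 there were 4 (all clusters 9.53%). Counts without 1 array of phenylalanine-betaxanthin were 8 (array 1; all clusters 12.9%), 7 (array 2; all clusters 12.7%) and 9 (array 3; all clusters 24.2%). Those without indoline-betacyanin array 1 or 2 were 13 each (all clusters 37.1% and 36.6%), and that without indicaxanthin array 3 was 34, where 61% of all clusters were called. The gene ugt-38 alone stayed called without any 1 array, in fits that kept the filter which it passed only through its controls. Centring each array on its median moved the median of all clusters by 0.15 and left 44% of them called.

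With indicaxanthin, ugt-38 fell and ugt-28 rose, as given above, and no other UGT gene passed. The share called was 3.57%, where 6.2% of all clusters were called, and 8 of the 56 had an unadjusted p under 0.05. Of the 53 genes without those let in by 1 group, ugt-28 was the 1 called. The arrays of the 2 groups did not overlap for 12 genes that were higher (21.4%; all clusters 16.1%) and 4 that were lower (7.14%; all clusters 14.9%). The median change was 0.00 over the UGT genes and 0.05 over all clusters. The next smallest p-values belonged to ugt-39 (log2 change -0.74, SE 0.21, limma adjusted p = 0.0851) and ugt-57 (-1.01, SE 0.32, adjusted p = 0.126) among the lower genes, and to ugt-31 (0.59, SE 0.17, adjusted p = 0.0962) and ugt-12 (0.54, SE 0.21, adjusted p = 0.244) among the higher. The 95% interval of the change lay within 1 of 0 for 32 of the 56 genes and extended more than 1 to either side of its estimate for 7.

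The indicaxanthin arrays lay apart among themselves. Array 3 was the farthest from the mean of the other 2 for 33 of the 56 UGT genes, array 1 for 12, among them ugt-62, and array 2 for 11, among them ugt-45. For 46 of the 56 UGT genes (82.1%) the level on array 3 was nearer to the phenylalanine-betaxanthin mean than to the mean of indicaxanthin arrays 1 and 2, as it was for 84.6% of all clusters. Arrays 1 and 2 were nearer to the phenylalanine-betaxanthin mean for 9 genes each (16.1%). Without array 3 the same 2 UGT genes were called, ugt-38 and ugt-28, the latter at 0.91 (limma adjusted p = 0.00789), where 10.5% of all clusters were. The call of ugt-28 ended without control array 1 or 2, which left ugt-38 alone (all clusters 3.82% and 6.1%), and 4 UGT genes were called without indicaxanthin array 2 (all clusters 5.63%).

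The authors' deposited table of indicaxanthin lists only clusters with an unadjusted p under 0.05, among them 6 UGT genes. Besides ugt-38 the authors' deposited table gives ratios of 0.557 for ugt-57, 1.35 for ugt-25, 1.18 for ugt-30, 1.09 for ugt-46 and 1.05 for ugt-42. The authors' deposited table implies 2 arrays per group, and its log2 ratios followed the changes on indicaxanthin arrays 1 and 2 (r 0.987 across clusters), whereas the fit here used 3, so the values rest on different arrays. Of these 5, ugt-42 was under the filter and not tested, and limma called none of the other 4 with or without array 3. The change of ugt-25 was -0.04 (SE 0.46) with all 3 arrays and 0.40 (SE 0.33) without array 3.

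The compounds were compared in 3 pairs, all at 25 uM and 48 h, with p-values adjusted over all clusters of a pair. Indoline-betacyanin against indicaxanthin gave 11 UGT genes, 4 higher and 7 lower (19.6%), where 14.2% of all clusters were called. By direction, 12.5% of the UGT genes were lower with indoline-betacyanin, against 4.42% of all clusters, and 7.14% higher, against 9.78%. The median difference was -0.28 over the UGT genes and -0.05 over all clusters. The genes lower with indoline-betacyanin were ugt-46 (-2.83, SE 0.13, limma adjusted p = 2.81e-05), ugt-47 (-2.67, SE 0.29, adjusted p = 0.000516), ugt-22 (-2.34, SE 0.41, adjusted p = 0.00604), ugt-62 (-1.39, SE 0.35), ugt-12 (-0.96, SE 0.19), ugt-30 (-0.85, SE 0.14) and ugt-4 (-0.64, SE 0.14). Those higher were ugt-39 (1.31, SE 0.19, adjusted p = 0.00225), ugt-29 (1.07, SE 0.29), ugt-44 (0.59, SE 0.15) and ugt-24 (0.55, SE 0.15). In each of these 11 genes the groups did not overlap.

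The gene ugt-39 shows where indoline-betacyanin and both betaxanthins differ in the other direction. Its level was 5.41 and 5.70 on the controls, 6.03, 6.16 and 6.19 with indoline-betacyanin, 4.82, 5.09 and 4.52 with indicaxanthin, then 5.19, 5.02 and 4.67 with phenylalanine-betaxanthin. The indoline-betacyanin arrays were the highest 3, the controls came next, and both betaxanthins overlapped below them. The difference of indoline-betacyanin was 1.31 from indicaxanthin and 1.16 (SE 0.19, limma adjusted p = 0.00216) from phenylalanine-betaxanthin. From control it was 0.57 (95% interval 0.09 to 1.04, adjusted p = 0.107) and not called, and the inferred control was at 4.88 or 4.70 by the authors' deposited tables.

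Without indicaxanthin array 3, indoline-betacyanin and indicaxanthin differed in 32 UGT genes, 7 higher and 25 lower, where 27.8% of all clusters were called. Those 32 held all 11 genes above. Counts fell to 6 without indoline-betacyanin array 1 (all clusters 8.4%) and to 7 without array 2 or array 3 (all clusters 8.6% and 8.27%). The genes ugt-12, ugt-22, ugt-30, ugt-39, ugt-46 and ugt-47 stayed called without any 1 array. Of the 14 intestine markers 6 were called lower and 0 higher between these compounds, which was not tested as a part of the UGT differences. The marker elt-2 was at 7.95 to 8.14 with indoline-betacyanin and at 5.74 to 7.40 with indicaxanthin.

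Indoline-betacyanin against phenylalanine-betaxanthin gave 20 UGT genes, 7 higher and 13 lower (35.7%), where 47.3% of all clusters were called. Over the 53 genes without those let in by 1 group they were 7 and 11 (34%). The largest differences were in ugt-22 (-4.10, SE 0.41, limma adjusted p = 0.000248), ugt-47 (-3.22, SE 0.29, adjusted p = 0.000148), ugt-46 (-3.07, SE 0.13, adjusted p = 1.74e-05) and ugt-64 (-2.16, SE 0.41, adjusted p = 0.00412) on the lower side. On the higher side they were in ugt-50 (2.17, SE 0.43, adjusted p = 0.00471), ugt-55 (1.70, SE 0.31, adjusted p = 0.00363), ugt-25 (1.34, SE 0.41, adjusted p = 0.0255) and ugt-59 (1.18, SE 0.26, adjusted p = 0.00679). The remaining higher genes were ugt-39, ugt-18 and ugt-24.

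The remaining lower genes of that pair were ugt-62, ugt-30, ugt-12, ugt-31, ugt-7, ugt-9, ugt-13, ugt-4 and ugt-11, with differences from -0.41 to -1.03. For ugt-13 and ugt-11, let in by the phenylalanine-betaxanthin arrays, the calls were read from the fit with no filter (adjusted p = 0.0268 and 0.0455), and ugt-11 overlapped between the groups. The level of ugt-55 was 2.65, 3.38 and 3.16 with indoline-betacyanin and 1.53, 1.19 and 1.35 with phenylalanine-betaxanthin, and 1.31 on indicaxanthin array 3. Its arrays split between the pair with a wide gap. Of the 20 genes, 13 stayed called without any 1 array, and the counts ran down to 14 without indoline-betacyanin array 2 or 3 or phenylalanine-betaxanthin array 1 (all clusters 37%, 36.7% and 35.9%). Without indicaxanthin array 3 there were 28, where 59% of all clusters were called. Yolk level again moved with this pair, as all 6 yolk genes were lower with indoline-betacyanin.

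Between indicaxanthin and phenylalanine-betaxanthin, which differ in the amino acid joined to betalamic acid, limma called 0 UGT genes and 0% of all clusters. At an unadjusted p under 0.05 there were 17 UGT genes and 6636 clusters. The 3 smallest p-values in each direction were those of ugt-22 (-1.77, 95% interval -2.70 to -0.84, indicaxanthin minus phenylalanine-betaxanthin), ugt-18 (0.96, 0.35 to 1.56), ugt-5 (0.65, 0.24 to 1.07), ugt-36 (0.61, 0.18 to 1.04), ugt-31 (-0.46, -0.81 to -0.11) and ugt-13 (-0.48, -0.88 to -0.09), all with an adjusted p of 0.14. The interval lay within 1 of 0 for 30 of the 56 genes. The arrays did not overlap for 6 genes higher with indicaxanthin (10.7%; all clusters 8.64%) and 5 lower (8.93%; all clusters 5.13%). Without indicaxanthin array 3 the pair differed in 33 UGT genes, 24 higher and 9 lower with indicaxanthin, where 55.1% of all clusters were called. Among these, ugt-22 was at -2.32 (limma adjusted p = 9.54e-07), ugt-50 at 1.81 (adjusted p = 1.68e-06) and ugt-64 at -1.67 (adjusted p = 5.79e-06).

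**Figure D4:**
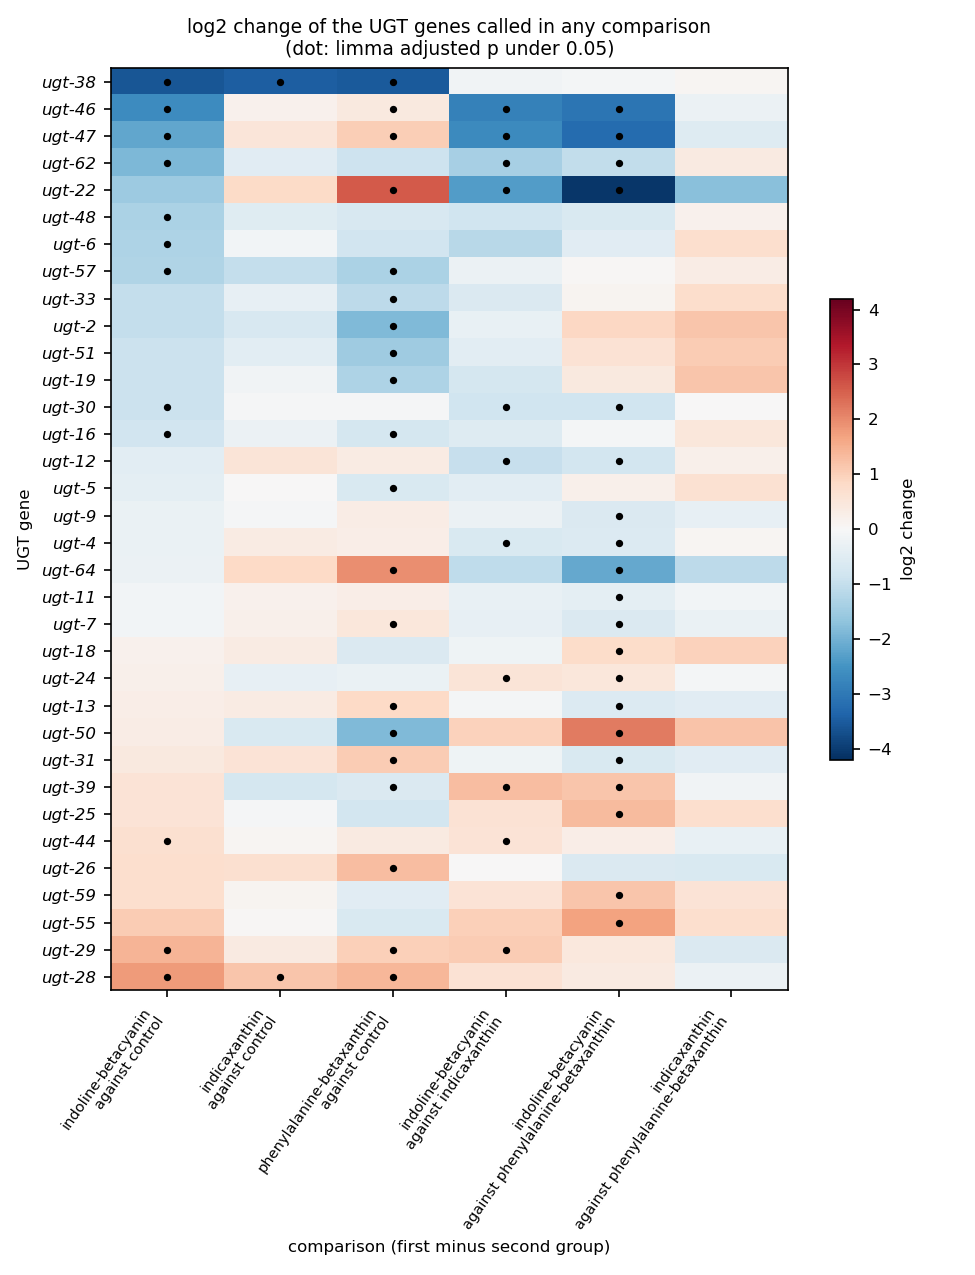
Log2 change (colour, red higher and blue lower in the first group) of the 34 UGT genes called in at least 1 comparison (rows) in the 6 comparisons (columns), with a dot where the limma adjusted p was under 0.05. The dots of ugt-38 and ugt-28 fill all 3 columns against control, those of ugt-46 and ugt-47 fill every column with indoline-betacyanin, and the last column has none.

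Among neighbouring UGT genes, some members of a group were called and others were not. With at most 2 other protein-coding genes allowed between neighbours, 36 of the 65 genes fell into 12 groups of the RefSeq gene order. On chromosome V, ugt-38 lies with ugt-40 and ugt-37, of which ugt-40 did not pass the filter and ugt-37 was at 1.72 and 2.09 on the controls and 1.37 to 2.62 elsewhere. None of the comparisons called ugt-37. The nearby group of ugt-39, ugt-41 and ugt-36 had 0 genes called with indoline-betacyanin against control, and ugt-39 fell with phenylalanine-betaxanthin.

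On chromosome I, ugt-26, ugt-27, ugt-28 and ugt-25 form a group. Of these ugt-28 rose with all 3 compounds, ugt-26 rose with phenylalanine-betaxanthin, and ugt-25 was called in none of the comparisons with control. The level of ugt-25 was 2.73 and 2.73 on the controls, 1.5, 2.66 and 1.74 with phenylalanine-betaxanthin and 3.18, 3.71 and 3.05 with indoline-betacyanin. Its arrays of these 2 compounds did not overlap, and it was higher with indoline-betacyanin.

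The longest group on chromosome V holds 7 measured genes, ugt-12, ugt-11, ugt-9, ugt-10, ugt-8, ugt-14 and ugt-13, with 6 tested. Against control it had only ugt-13 called, with phenylalanine-betaxanthin. Between indoline-betacyanin and phenylalanine-betaxanthin ugt-12, ugt-9, ugt-13 and ugt-11 were lower with the former, while ugt-10 and ugt-8 were not called. In the group of ugt-5, ugt-4, ugt-6 and ugt-3, ugt-6 fell with indoline-betacyanin and ugt-5 with phenylalanine-betaxanthin. Neither call held after a further quantile normalization (limma adjusted p = 0.0602 and 0.063). Transcripts of close relatives can bind the same probes, and protein likeness was not compared here, so single members of these groups are uncertain.

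**Figure D5:**
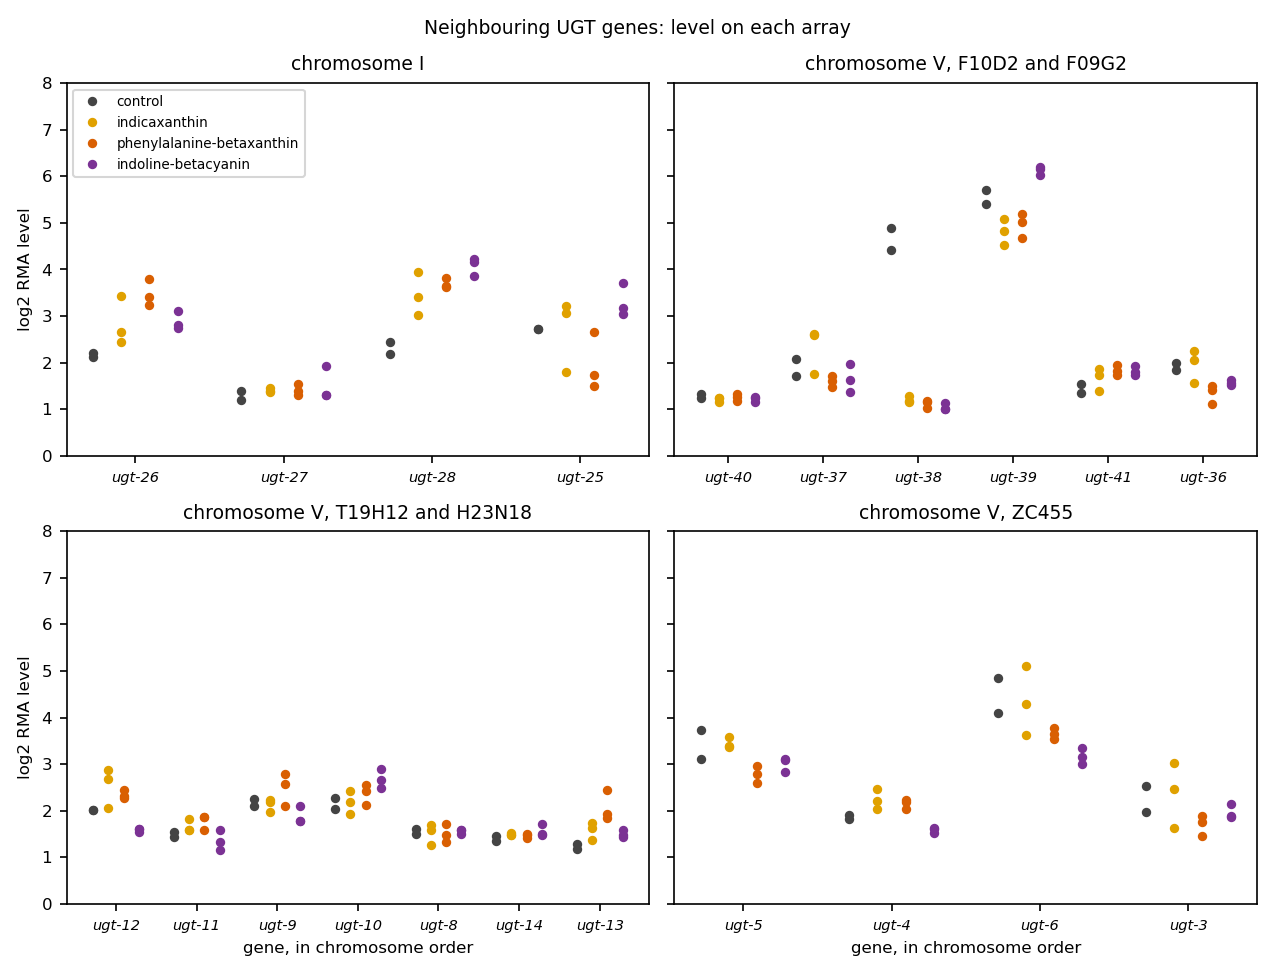
Log2 RMA level (vertical axis) of neighbouring UGT genes, in chromosome order within each panel, with 1 point per array coloured by group. The upper right panel holds 2 neighbouring groups, in which ugt-38 is high on the controls alone and ugt-39 is highest with indoline-betacyanin while ugt-40 and ugt-41 stay between 1.15 and 1.96, and the upper left panel shows ugt-28 and ugt-26 lowest on the controls.

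The UGT genes with the 10 highest means include 3 that were called in no comparison. The gene ugt-23 was at 6.63 and 6.76 on the controls, with the other arrays between 6.02 and 6.76, and its changes from control were -0.29 (95% interval -0.73 to 0.16) with indoline-betacyanin, -0.25 (-0.69 to 0.20) with indicaxanthin and -0.53 (-0.97 to -0.08, limma adjusted p = 0.0546) with phenylalanine-betaxanthin. The gene ugt-58 ran from 4.70 to 5.42 over all arrays, with changes from control of -0.07, -0.23 and -0.42 in the same order. The gene ugt-49 was at 4.05 and 4.59 on the controls and at 3.89, 3.80 and 3.42 with indoline-betacyanin, a change of -0.62 (-1.28 to 0.04).

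Some UGT genes share their place with another gene. Of the 65 genes 17 overlap another gene in the RefSeq table and 48 do not, and the strand of the array signal was not used here. The genes ugt-38, ugt-46, ugt-28, ugt-62 and ugt-39 overlap none. The gene ugt-64 overlaps C07G3.10, which was at 4.40 and 3.04 on the controls and 2.23 to 2.73 with phenylalanine-betaxanthin, where ugt-64 was high. The gene ugt-22 overlaps srz-29 and 18 other genes that are not protein-coding, and ugt-47 overlaps srd-49.

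Genes that serve the same step were set beside the UGTs. Of 17 tested genes for the supply and transport of UDP-sugars, 2 rose and 1 fell with indoline-betacyanin, 0 rose and 1 fell with indicaxanthin, and 6 rose and 4 fell with phenylalanine-betaxanthin, where 17.3%, 6.2% and 44.6% of all clusters were called. The list had medians of 0.00, 0.17 and 0.29 beside 0.02, 0.05 and -0.05 over all clusters. The nucleotide-sugar transporter family gene nstp-7 fell with all 3, by 2.67, 2.57 and 2.40 (SE 0.32 each, limma adjusted p from 0.000484 to 0.00129). Its levels were 4.72 and 3.46 on the controls, with the other arrays at 1.33 to 1.89. Like ugt-38, nstp-7 was thus high on the controls alone, and its 3 comparisons share the same 2 controls. The treated levels lay close to the filter level and are read only as low, so the 3 decreases are not compared. Its level on the inferred control is not given here. The gene sqv-4, which encodes the UDP-glucose dehydrogenase that makes UDP-glucuronic acid, rose by 0.72 with indoline-betacyanin (SE 0.17, adjusted p = 0.0197), and D1005.2 rose by 1.35 (SE 0.33, adjusted p = 0.0214).

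With phenylalanine-betaxanthin the decarboxylase gene sqv-1 rose by 2.26 (SE 0.58, limma adjusted p = 0.0199) and the transporter gene sqv-7 by 1.51 (SE 0.26, adjusted p = 0.00549), while nstp-7 and D1005.2 fell. The levels of sqv-1 were 3.40 and 4.02 on the controls, 5.84, 6.25 and 5.82 with phenylalanine-betaxanthin, and 5.90 on indicaxanthin array 3 against 3.94 and 3.57 on arrays 1 and 2. Its high arrays were thus the 4 of high yolk level.

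Of 19 tested exporters of the P-glycoprotein (pgp) and multidrug-resistance (mrp) families, which carry conjugates and drugs out of cells, 3 rose and 2 fell with indoline-betacyanin, 0 changed with indicaxanthin, and 2 rose and 5 fell with phenylalanine-betaxanthin, beside the same shares of all clusters (17.3%, 6.2% and 44.6%). With indoline-betacyanin pgp-6 rose by 1.97 (SE 0.22, limma adjusted p = 0.000294), from 1.79 and 1.94 to 3.75, 3.85 and 3.89, and pgp-3 rose by 1.35 (SE 0.18, adjusted p = 0.000992). The other 6 treated arrays had pgp-6 at 1.57 to 2.38. The gene mrp-2 rose by 1.08 (SE 0.24), and pgp-9 and pgp-1 fell by 1.26 and 0.96. With phenylalanine-betaxanthin mrp-7 and mrp-4 rose by 2.13 and 2.12 (SE 0.57 each, adjusted p = 0.0214 and 0.022). Both were high on the 4 arrays of high yolk level, with mrp-4 at 6.96 to 7.21 there and at 3.56 to 5.14 on the other 7.

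Of 19 tested genes listed for the response to foreign chemicals, 3 rose and 1 fell with indoline-betacyanin, 0 changed with indicaxanthin, and 2 rose and 6 fell with phenylalanine-betaxanthin, again beside 17.3%, 6.2% and 44.6% of all clusters. The list holds regulators and also enzyme genes, among them emb-8. With indoline-betacyanin the transcription factor gene pqm-1 rose by 0.97 (SE 0.14, limma adjusted p = 0.00133), the aryl hydrocarbon receptor gene ahr-1 by 1.78 (SE 0.44, adjusted p = 0.0221) and skn-1 by 0.55 (SE 0.13, adjusted p = 0.0205), and emb-8, the cytochrome P450 reductase gene, fell by 0.56 (SE 0.16, adjusted p = 0.0401). The level of pqm-1 was 8.91 and 9.14 on the controls and 10.02, 9.99 and 9.98 with indoline-betacyanin, above all other arrays. With phenylalanine-betaxanthin the steroid receptor gene daf-12 fell by 2.12 (SE 0.51, adjusted p = 0.018), and the nuclear receptor gene nhr-86 rose by 1.41 (SE 0.31, adjusted p = 0.015). Both followed the 4 arrays of high yolk level. On indicaxanthin array 3 daf-12 was at 5.92, against 8.08 and 7.51 on arrays 1 and 2, and nhr-86 at 6.40, against 5.34 and 5.39. Over the 19 genes of this list the inferred control averaged 5.48 or 5.46 by the authors' deposited tables. The controls averaged 6.03 and 6.21, and the phenylalanine-betaxanthin arrays 5.62 to 5.67.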

How the data were processed

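The deposited log2 values, for 11 arrays, came from RMA according to the submitters' processing notes. Which RMA version, array model, genome build and annotation release were used is unknown here. Per the file headers, the authors' deposited comparison tables hold gene names, an F score, an unadjusted p-value and the treated-to-control ratio. The values per array were used as deposited. RNA input was 3.5 ng per sample per the labels.

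Each gene had 1 cluster. One limma model (version 3.58.1 in R 4.3.3; lmFit and eBayes defaults, 4 group means, 11 arrays, no block) was fitted to the 20291 named clusters above the 25th percentile of mean level, with Benjamini-Hochberg adjustment at 0.05 over all of them. Residual degrees of freedom were 7, and the prior added 1.93. Calls of the 3 UGT genes that passed the filter through 1 group were read from the fit with no filter. The fits that left out an array kept the filter, so what they show for these 3 genes rests on it. The code was tested on simulated data. Clusters lacking a gene name, 2262 in all, were not tested.

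The inferred control was computed as 3 times the difference of the treated mean and the authors' log2 ratio, minus both controls. The members, the lists and the tests were chosen with earlier results of these data known. Named UGT genes were, per comparison, up to 12 higher and 12 lower with the largest changes among those called without overlap (the 3 of smallest p per direction where under 3 passed), the 10 of highest mean, the 6 of widest range, the 5 genes most like ugt-38, members of described neighbour groups, and up to 4 members of each pathway list with the smallest p-values. Genes named outside it were chosen after their values were seen. Neighbours were read from the RefSeq table for order only. Protein identity was not computed, and no sequence was used. Alternatives were the trial number as a block, filters, scalings, eBayes options, array weights, fits of 2 groups, and each array left out. Same-numbered arrays correlated in their deviations from group means at -0.292 to 0.101 over 15 pairs. Deviations within groups of 2 or 3 arrays are tied to each other, so these values cannot show whether the numbers pair the samples. The numbers were not used as pairs.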

Additional observations from a re-analysis of the deposited data

How the results depend on the processing

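Over 20 alternatives, the 64 called changes of single named UGT genes gave 1265 values, of which 1039 kept direction and call, 226 kept direction only and 0 reversed, and 24 calls held in every alternative run. The 13 uncalled ones passed 18 times. The 24 calls that held include those of ugt-38 against control, which its controls alone carried past the filter kept in most alternatives. Array weights raised the counts of UGT genes called to 27 (indoline-betacyanin against control, 12 as reported), 36 (phenylalanine-betaxanthin against control, 20), 32 (indoline-betacyanin against indicaxanthin, 11), 35 (indoline-betacyanin against phenylalanine-betaxanthin, 20) and 32 (indicaxanthin against phenylalanine-betaxanthin, 0), where 36.8%, 62.9%, 27.5%, 63.2% and 55.7% of all clusters were called. Fits of only the groups compared gave 27, 36, 4 and 31 for the first 4 in that order (all clusters 36%, 61.3%, 4.7% and 61.2%), and 1 for indicaxanthin against control (2 as reported; all clusters 1.04%). The cause was not tested. A filter at the median, which tests fewer genes and drops ugt-38, gave 0 for indicaxanthin against control (all clusters 3.6%) and 13 for phenylalanine-betaxanthin against control (all clusters 55.3%). With the trial number as a block, though what arrays of the same number share is not stated, the counts were 10, 11, 7, 18 and 0 in the same order (all clusters 14.4%, 18%, 11.5%, 45.1% and 0%), and 1 for indicaxanthin against control (all clusters 4.79%). Leaving out each array in turn gave 5 to 26, 3 to 34, 6 to 32, 14 to 28 and 0 to 33 in that order, and 1 to 4 for indicaxanthin against control, while all clusters called ran from 9.19% to 35.4%, 5.7% to 61%, 8.27% to 27.8%, 35.9% to 59%, 0% to 55.1% and, for the last, 3.82% to 10.5%. The highest count of UGT genes came without indicaxanthin array 3 in all but the last. Averaging a gene's clusters left each UGT gene, which has 1, as it was. Low levels limit what can be read for the 9 genes under the filter.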
